A study of Mus musculus with 4 samples.

Results

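A set of 8 genes of fatty acid and surfactant lipid synthesis was followed by ribosome profiling in MLE-12 cells, out of 53465 Ensembl gene IDs in the deposited count table. The 8 genes were Srebf1, Fasn, Acaca, Acly, Scd1, Scd2, Elovl6 and Lpcat1, picked by Ensembl ID for their place in the pathway. The deposited table lists IDs only, and the RefSeq table used here links 0 of its 49997 genes to an Ensembl ID, so these symbols are those that came with the 8 IDs when the set was drawn up. Ribosome profiling counts the RNA fragments that ribosomes shield from nuclease, and a footprint level therefore combines the amount of an mRNA with its occupancy by ribosomes. RNA libraries of the same cells are not analysed here, so these 2 parts cannot be told apart, nor can a shift in all cells from one in some of them.

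MLE-12 cells are mouse lung epithelial cells carrying the SV40 large T antigen; they stand in for alveolar type 2 cells, which make surfactant. Control cells, cultured without the compound, gave 2 libraries (replicates 1 and 2), and cells cultured with 5 µM 1-nitropyrene, a nitrated aromatic hydrocarbon found in diesel exhaust, gave 2 (replicates 2 and 3), both over 12 h. All cells were of the same line, and the labels name no vehicle and no genetic change. The series was made to study translation of Fbxw7, a ubiquitin ligase subunit, under the compound. The labels do not tell whether replicates were separate cultures, so the spread between libraries behind the p-values may be only technical. In the edgeR test used below, that spread was taken from the trend over all tested IDs. A gene's edgeR p-value thus does not weigh how closely its own replicates agree. The markers of alveolar type 2 and other cell types, fixed by symbol, could not be tied to IDs, so the labelled cell type was not checked.

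Fatty acids are built in the cytosol from acetyl-CoA. ATP citrate lyase (Acly) makes acetyl-CoA from citrate, acetyl-CoA carboxylase (Acaca) turns it into malonyl-CoA, and fatty acid synthase (Fasn) joins these units into palmitate. Elovl6 lengthens palmitate, the stearoyl-CoA desaturases Scd1 and Scd2 add a double bond, and Lpcat1 places palmitate on lysophosphatidylcholine to give the saturated phosphatidylcholine of surfactant. Srebf1 encodes SREBP-1, the membrane-bound transcription factor that, once cleaved, binds the promoters of lipogenic enzyme genes; its mature form is also a known substrate of FBXW7.

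The libraries held 1136145 to 1357034 counts in total, and 1 count was worth 0.761 to 0.860 CPM (counts per 1e6 of a TMM-scaled library). Depth limited several of the 8 genes. Srebf1, Fasn, Acaca, Acly and Elovl6 passed the filter on low counts and were tested, while Scd1, Scd2 and Lpcat1 did not pass it. Srebf1 passed only through its 1-nitropyrene libraries. Among the 7719 IDs tested, 1332 passed an adjusted p of 0.05 (17.3%; edgeR's quasi-likelihood test with Benjamini-Hochberg adjustment) and are termed called, of which 747 were higher with 1-nitropyrene (9.68%) and 585 lower (7.58%). Scaled to total counts the split was 410 higher (5.31%) and 1098 lower, as the median log2 fold change over the tested IDs went from -0.0076 to -0.17.

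Footprints of Srebf1, Fasn, Acaca and Acly rose with 1-nitropyrene, by 3.63-, 1.71-, 1.39- and 1.32-fold in the same edgeR fit. The tested gene that did not pass the threshold was Elovl6, at 1.35-fold (95% interval 0.978 to 1.87). Thus 4 of the 8 genes (5 of them tested) were called, all higher. Of all IDs tested, 17.3% were called and 9.68% were called higher. The genes were chosen with results of these data known, and Srebf1 had to be high in a group to be tested, so this count is a description. In CPM, the groups did not overlap for 7 of the 8 genes, 6 of them higher and Lpcat1 lower with 1-nitropyrene. Of all tested IDs, 57.3% had groups that did not overlap, and 28.6% did so with higher values after 1-nitropyrene. Scd2 and Lpcat1 were below the count filter and are not in these shares. The 5 tested genes were all higher without overlap, which is likewise a description. With no filter on counts, the median log2 fold change was 0.64 over the 8 genes and -0.0090 over the 13738 IDs with a count. The former median takes in Scd1 (0.89), Scd2 (1.03) and Lpcat1 (-0.38), whose counts were too low for the filter.

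**Figure D1:**
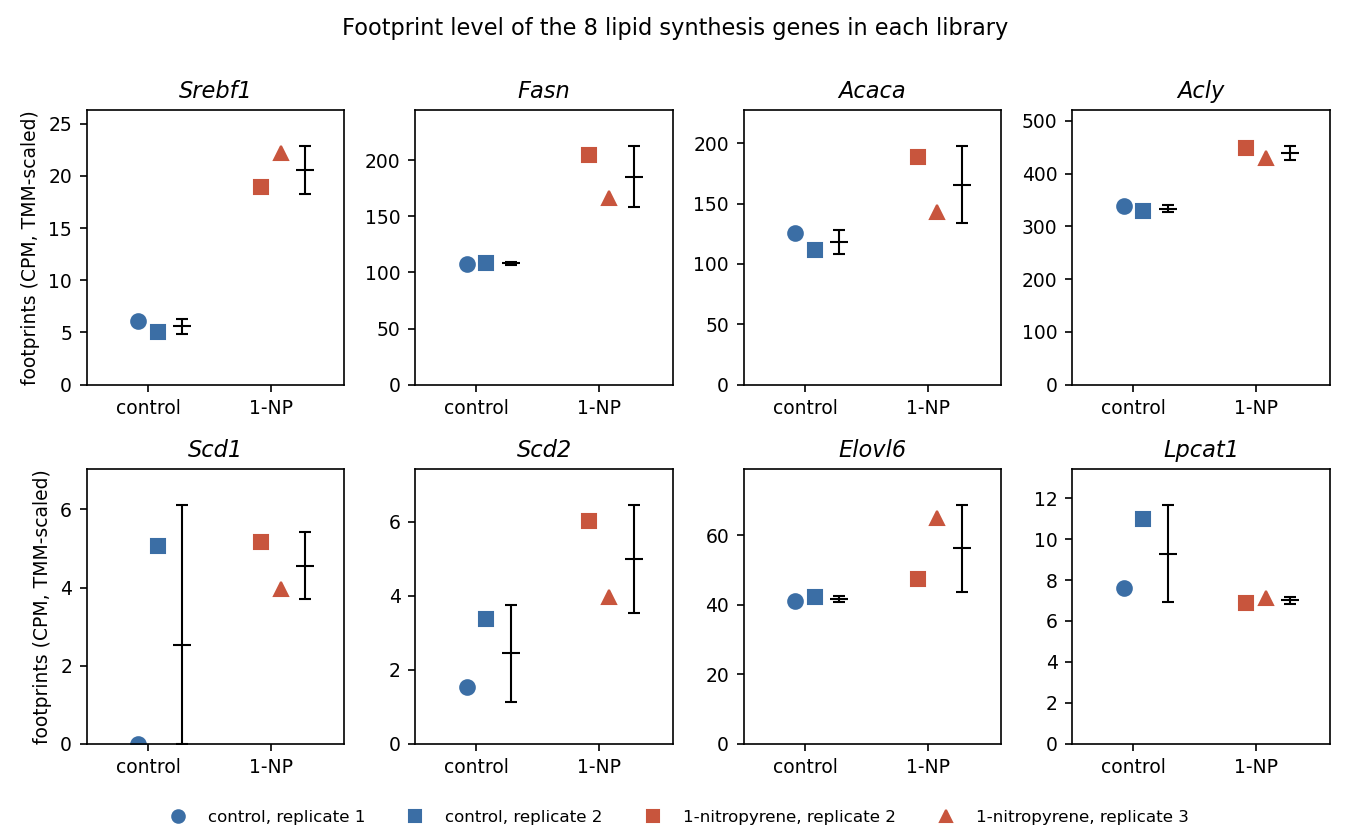
Footprint level of the 8 genes in each library, in TMM-scaled CPM on axes that start at 0; 1-NP is 1-nitropyrene, points are libraries, and the black bar gives the mean ± SD of a group (n = 2; bars stop at 0). For Srebf1, Fasn, Acaca, Acly, Scd2 and Elovl6 both 1-nitropyrene libraries lie above both controls, for Lpcat1 both lie below, and for Scd1 the groups overlap.

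Srebf1 (ENSMUSG00000020538) rested on few footprints. Control replicates 1 and 2 gave 8 and 6 counts, while 1-nitropyrene replicates 2 and 3 gave 22 and 28. These equal 6.08 and 5.06 CPM in the controls and 18.9 and 22.2 CPM with 1-nitropyrene. Every treated library lay at least 3.11 times above every control, and at most 4.38 times. The group means were 5.57 ± 0.723 and 20.6 ± 2.30 CPM (SD, n = 2 each), a log2 fold change of 1.86 ± 0.49 (SE; edgeR adjusted p = 0.00195). The 95% interval of the fold ran from 1.87 to 7.05, so the size of the rise is loosely set. It was the ID with the 36th highest log2 fold change of the 7719 tested, with 0.453% of them above it. This rank only describes, as Srebf1 entered the tested set through its 1-nitropyrene libraries alone. It also sets IDs of all depths side by side.

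The filter was replaced by a mean count of at least 10 over the 4 libraries, which takes no account of the groups. Srebf1 met it with a mean of 16, while its control counts of 8 and 6 were below 10. Srebf1 then had a log2 fold change of 1.86 and an edgeR adjusted p of 0.00215, with 17.4% of IDs called under that filter. The call was lost without 1-nitropyrene replicate 3 (log2 fold change 1.74, edgeR adjusted p = 0.0601) and in the DESeq2 Wald test on the IDs that edgeR tested (log2 fold change 1.88, adjusted p = 0.107), which called 4.47% of them.

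The 3 enzymes on the route from citrate to palmitate were covered more deeply. In RefSeq's GRCm38.p6 annotation their genes lie on chromosome 11, as does Srebf1 (chr11:60199084-60224186), with Acly at chr11:100476352-100528000 and Fasn at chr11:120805958-120825166. Acly (ENSMUSG00000020917) had 444 and 390 counts in the controls and 521 and 543 with 1-nitropyrene, or 338, 329, 448 and 430 CPM. The libraries of a group lay close together and the groups stood apart. Acly rose from 333 ± 6.14 to 439 ± 12.9 CPM (SD, n = 2 each; log2 fold change 0.40 ± 0.083 SE, edgeR adjusted p = 5.03e-05). Its change was the smallest of the 4 called genes and its 95% interval the narrowest, from 1.18- to 1.47-fold. A larger log2 fold change was seen in 19.9% of all tested IDs.

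Acaca (ENSMUSG00000020532) had 165 and 132 counts in the controls and 219 and 181 with 1-nitropyrene. Control replicates 1 and 2 stood at 125 and 111 CPM, and 1-nitropyrene replicates 2 and 3 at 188 and 143 CPM. The groups did not overlap, but the lowest treated library was only 1.14 times the highest control, and the highest was 1.69 times the lowest. Acaca rose from 118 ± 10.0 to 166 ± 31.9 CPM (SD, n = 2 each; log2 fold change 0.48 ± 0.14 SE, edgeR adjusted p = 0.00682). This call was lost without 1-nitropyrene replicate 2 (edgeR log2 fold change 0.29, adjusted p = 0.341), without control replicate 2 (0.40, adjusted p = 0.135), with total counts (0.32, adjusted p = 0.0960) and in the DESeq2 Wald test (0.49, adjusted p = 0.176).

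Fasn (ENSMUSG00000025153) had 141 and 129 counts in the controls and 238 and 210 with 1-nitropyrene. The controls were nearly alike at 107 and 109 CPM, and the treated libraries stood at 205 and 166 CPM. Each treated library was between 1.53 and 1.91 times each control. Fasn rose from 108 ± 1.12 to 186 ± 27.2 CPM (SD, n = 2 each; log2 fold change 0.78 ± 0.14 SE, edgeR adjusted p = 9.48e-07; 95% interval 1.42- to 2.07-fold). A larger log2 fold change was seen in 6.50% of all tested IDs. The DESeq2 Wald test with its own filter, which called 10.7% of the IDs to which it gave an adjusted p, also called Fasn (adjusted p = 0.00692).

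**Figure D2:**
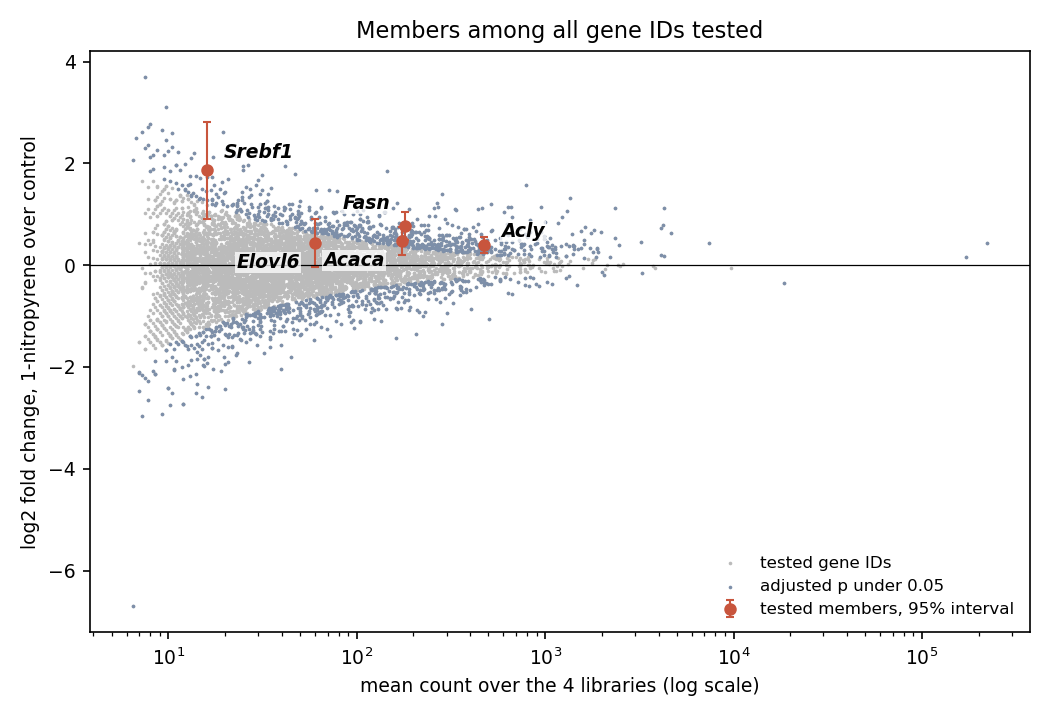
Log2 fold change of 1-nitropyrene over control against the mean count over the 4 libraries (log scale) for the 7719 IDs tested, grey where not called and blue-grey where called, with the 5 tested genes of the pathway in red and their 95% intervals. Srebf1, tested only through its 1-nitropyrene libraries, lies near the top edge of IDs with similar counts, at 1.86. The interval of Elovl6 reaches below 0.

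Promoter windows of the genes were searched for letters tied to SREBP-1. RefSeq's windows (GRCm38.p6) gave 8 for 6 of the 8 genes; none is given here for Scd1 or Scd2. SREBP-1 binds sterol regulatory elements and works beside NF-Y, which binds the CCAAT box, and Sp1, which binds the GC box. On both strands of each window of 300 bases, the search was for TCACCC (a core of the sterol regulatory element), for the CCAAT box as CCAAT, for the GC box as GGGCGG and for the E-box as CACGTG and, more widely, CANNTG, which includes the former. Windows of Srebf1, Fasn and Acly are printed because these genes rose and the windows hold the element core, a CCAAT box or a GC box. For Srebf1, only the window with TCACCC is printed. Only the 250 bases before the start are given, 5′ to 3′ on the minus strand. Capitals mark the element core, the CCAAT box and the GC box on either strand.
Srebf1, chr11:60210472-60210721: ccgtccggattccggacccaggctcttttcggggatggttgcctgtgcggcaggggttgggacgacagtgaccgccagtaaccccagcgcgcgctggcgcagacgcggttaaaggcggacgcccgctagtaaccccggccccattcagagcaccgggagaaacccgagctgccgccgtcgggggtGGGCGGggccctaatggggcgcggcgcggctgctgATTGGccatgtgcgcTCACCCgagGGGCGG
Fasn, chr11:120824548-120824797: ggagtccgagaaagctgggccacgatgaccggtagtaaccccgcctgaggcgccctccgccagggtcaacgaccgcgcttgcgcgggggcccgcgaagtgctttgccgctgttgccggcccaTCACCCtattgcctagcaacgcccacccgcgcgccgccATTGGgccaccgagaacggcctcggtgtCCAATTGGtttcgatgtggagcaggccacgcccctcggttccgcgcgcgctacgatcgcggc
Acly, chr11:100528001-100528250: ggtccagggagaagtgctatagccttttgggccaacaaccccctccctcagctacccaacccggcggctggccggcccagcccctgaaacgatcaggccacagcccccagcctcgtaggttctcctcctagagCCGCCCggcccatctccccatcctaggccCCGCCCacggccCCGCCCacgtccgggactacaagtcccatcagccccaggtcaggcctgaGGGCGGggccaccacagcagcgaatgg

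The Srebf1 window held TCACCC from -15 to -10, a reverse CCAAT box from -30 to -26 and GGGCGG from -65 to -60 and from -6 to -1, counted from the start, with -1 the base before it. This is the most downstream of the 3 windows that the table gives for Srebf1; the other two lack TCACCC. In the Fasn window, TCACCC lay from -128 to -123, and a reverse CCAAT box from -90 to -86. Farther in, Fasn held CCAAT on both strands in overlap, from -62 to -58 and from -59 to -55. The Acly window held no TCACCC; it had GGGCGG on either strand at 4 places before the start, the nearest from -27 to -22, and CCAAT after the start, from 38 to 42.

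TCACCC was thus in 2 of the 8 windows (16.2% of all windows), from 2 of the 6 genes, against 18.1% of the 27025 genes in the table. The Acaca window held only CANNTG, and that of Elovl6 held none of the motifs. Lpcat1, the gene with lower values, held GGGCGG on either strand from -48 to -43, from -13 to -8 and from 13 to 18. It also held CANNTG, so such letters were not limited to genes that rose. CCAAT was in windows of 3 genes (41.1% of all genes) and GGGCGG in those of 3 (38.2%). CACGTG was in none of the 8 windows; it occurs in those of 8.09% of all genes. CANNTG was found for 4 genes, against 75% of all. For the CCAAT and GC boxes these shares are near those of all genes. The TCACCC share rests on 2 genes, of which Srebf1 had 3 windows to be searched, and was not tested. Such a match is a run of letters and no measured site. The Acaca window lies within the gene, at chr11:84195188-84195487 in a gene that spans chr11:84129635-84401651, and so shows only 1 of its starts. The Fasn window and the 3 Srebf1 windows also lie within the spans of their genes. Their positions are thus counted from starts inside the gene and not from its outer end.

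Summed over Acly, Acaca and Fasn, the libraries held 750 and 651 counts in the controls and 978 and 934 with 1-nitropyrene. The summed level was 570 and 549 CPM in the controls and 842 and 740 CPM with 1-nitropyrene, whose mean was 1.41 times that of the controls. As a share of these 3 enzymes' footprints, Fasn made up 18.8% and 19.8% in the controls (exact 95% intervals 16.1 to 21.8% and 16.8 to 23.1%) and 24.3% and 22.5% with 1-nitropyrene (21.7 to 27.2% and 19.8 to 25.3%). Acly made up 59.2% and 59.9% against 53.3% and 58.1%, and Acaca 22.0% and 20.3% against 22.4% and 19.4%. The groups did not overlap for Fasn and Acly, with the Fasn share higher and the Acly share lower after treatment, and overlapped for Acaca. Intervals cover counting error only, and those of Fasn overlap between groups. The Acly interval of 1-nitropyrene replicate 3, 54.9 to 61.3%, includes both control shares. As parts of the same sum, the shares do not move independently, so the Acly share is no separate result.

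Counts set against Acly in the same library need no scaling between libraries. Per 100 Acly footprints there were 1.80 and 1.54 of Srebf1 in the controls and 4.22 and 5.16 with 1-nitropyrene. For Fasn there were 31.8 and 33.1 in the controls and 45.7 and 38.7 with 1-nitropyrene. In both cases every treated library exceeded every control, with means of the treated libraries at 2.81 and 1.30 times the control means. Acaca, at 37.2 and 33.8 against 42.0 and 33.3, and Elovl6, at 12.2 and 12.8 against 10.6 and 15.1, overlapped between groups. Set against Fasn instead, Srebf1 had 5.67 and 4.65 footprints per 100 in the controls and 9.24 and 13.3 with 1-nitropyrene. Acaca per 100 Fasn was lower in both treated libraries, at 117 and 102 against 92.0 and 86.2. Elovl6 per 100 Fasn overlapped between groups, at 38.3 and 38.8 against 23.1 and 39.0. Lpcat1 per 100 Acly was lower in both treated libraries, at 2.25 and 3.33 against 1.54 and 1.66, on few counts. For 2 libraries against 2 the smallest p of an exact permutation test (two-sided) is 0.333, so unequal rises within the pathway are described and not tested.

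**Figure D3:**
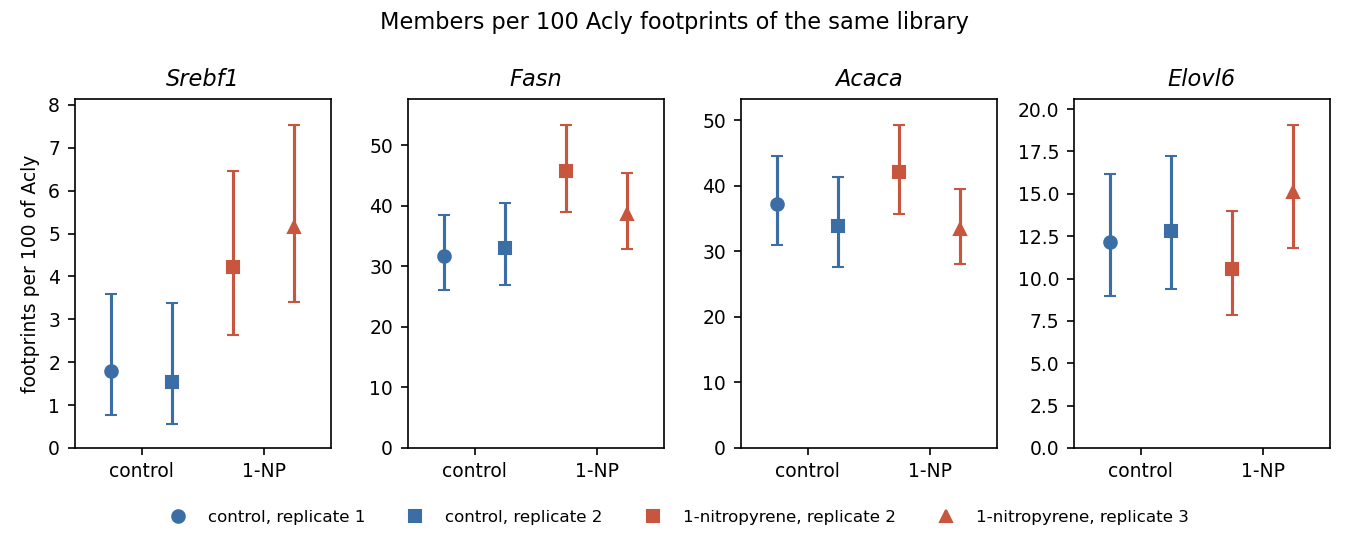
Footprints of Srebf1, Fasn, Acaca and Elovl6 per 100 Acly footprints of the same library, with exact (Clopper-Pearson) 95% intervals that cover counting error only; 1-NP is 1-nitropyrene and each axis starts at 0. Srebf1 climbs from 1.80 and 1.54 to 4.22 and 5.16 and Fasn from 31.8 and 33.1 to 45.7 and 38.7, while the libraries of the 2 groups overlap for Acaca and Elovl6. Some counting intervals overlap between groups for every gene shown.

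The enzymes that modify palmitate gave no call. Elovl6 (ENSMUSG00000041220) had 54 and 50 counts in the controls and 55 and 82 with 1-nitropyrene. Its levels were 41.1 and 42.2 CPM in the controls and 47.3 and 65.0 CPM in 1-nitropyrene replicates 2 and 3. Both treated libraries lay above the controls, replicate 2 by little. The means were 41.6 ± 0.785 and 56.1 ± 12.5 CPM (SD, n = 2 each; log2 fold change 0.44 ± 0.24 SE, edgeR adjusted p = 0.205). The log2 fold change was 0.19 without 1-nitropyrene replicate 3 and 0.66 without replicate 2, with no call in either case.

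The 1-nitropyrene libraries differed from gene to gene. Replicate 3 stood at 0.812 of replicate 2 for Fasn and 0.761 for Acaca, but at 1.37 times replicate 2 for Elovl6 and 1.17 times for Srebf1. For Acly the ratio was 0.959. Among the controls, replicate 2 stood at 0.832 of replicate 1 for Srebf1, 0.887 for Acaca, 0.974 for Acly, 1.01 for Fasn and 1.03 for Elovl6. By these ratios the treated libraries were farther apart than the controls for Fasn, Acaca and Elovl6, and slightly so for Acly. The ratios take no account of counting error.

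Scd1 (ENSMUSG00000037071) had 0 and 6 counts in the controls and 6 and 5 with 1-nitropyrene. That is 0 and 5.06 CPM against 5.16 and 3.96 CPM, so the groups overlapped. The count of 0 in control replicate 1 has an exact Poisson 95% interval of 0 to 2.81 CPM (3 counts would be 2.28 CPM). Scd2 (ENSMUSG00000025203) had 2 and 4 counts in the controls and 7 and 5 with 1-nitropyrene, or 1.52 and 3.37 against 6.02 and 3.96 CPM. Its treated libraries lay above the controls. The exact Poisson 95% interval of control replicate 2, 0.919 to 8.64 CPM, includes both treated values, and that of control replicate 1, 0.184 to 5.50 CPM, includes 1-nitropyrene replicate 3 but not replicate 2.

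Pooled over libraries, the ratio of 1-nitropyrene to control was 1.89 for Scd1 (95% counting interval 0.641 to 6.23) and 2.06 for Scd2 (0.716 to 6.70). The 2 desaturase genes lie 87585 bases apart on chromosome 19 and may share reads, as the sources used here do not say how reads matching several genes were counted. Summed, they had 2 and 10 counts against 13 and 10, a pooled ratio of 1.98 (0.944 to 4.36). Single libraries decide these values. Without control replicate 1 the log2 pooled ratio of Scd1 turned from 0.92 to -0.16, that of Scd2 went from 1.04 to 0.55 and that of the sum from 0.98 to 0.17. Without control replicate 2 it was 1.70 for Scd2 and 2.64 for the sum, while Scd1 then has only a control count of 0. Tested as 1 feature, the sum passed the count filter and edgeR gave it a log2 fold change of 0.96 ± 0.61 (SE, adjusted p = 0.287). With no filter, a fit that called 8.52% of the IDs with a count, the edgeR adjusted p was 0.651 for Scd1 and 0.589 for Scd2. A difference in desaturase footprints was not detected at this depth, and the intervals include ratios as large as that of Srebf1.

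Lpcat1 (ENSMUSG00000021608), the enzyme nearest to surfactant phospholipid, was the only member with lower values after 1-nitropyrene. It had 10 and 13 counts in the controls and 8 and 9 with 1-nitropyrene. The levels were 7.61 and 10.97 CPM against 6.88 and 7.13 CPM, so the groups did not overlap, with control replicate 1 close to the treated libraries. The pooled ratio was 0.762 (95% counting interval 0.382 to 1.49), a log2 ratio of -0.39 that went to -0.12 without control replicate 2 and to -0.65 without control replicate 1. With a filter on the mean count of at least 10, edgeR gave a log2 fold change of -0.39 ± 0.57 (SE, adjusted p = 0.696). The 95% interval of the fold ran from 0.352 to 1.65, so these data leave both a fall and a rise within it possible.

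**Figure D4:**
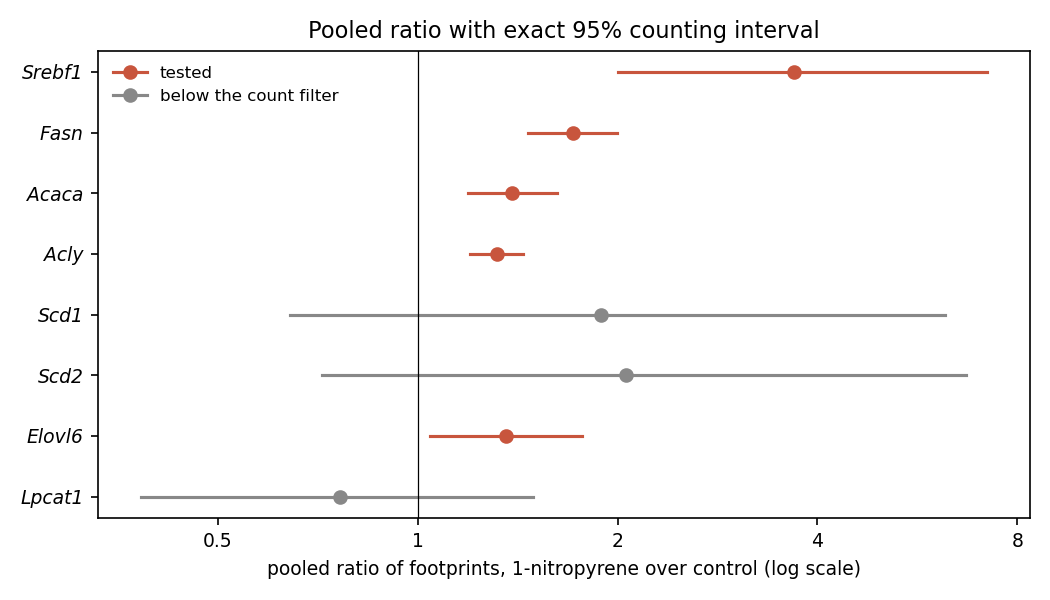
Pooled ratio of TMM-scaled footprints, 1-nitropyrene over control, on a log scale, with exact 95% counting intervals; red genes were tested and grey genes fell below the count filter. Srebf1, Fasn, Acaca, Acly and Elovl6 have intervals above 1, and those of Scd1, Scd2 and Lpcat1 include 1; the intervals leave out the spread between libraries.

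The choice of scaling set the size of the rises but not their order. Scaled to total counts, the log2 fold changes were 1.70 for Srebf1, 0.62 for Fasn, 0.32 for Acaca and 0.24 for Acly, all lower than with TMM and all above 0. Relative to the median of the tested IDs they were 1.87, 0.78, 0.49 and 0.40, equal at this precision to the same values with TMM, since a change of scaling shifts all IDs nearly alike. Without a standard added to the cells, these data do not say whether footprint output per cell differed between the groups. The 8 lists with 148 symbols of the wider pathway, such as its regulators, other elongases, phospholipid synthesis, fatty acid oxidation and cholesterol synthesis, could not be tied to IDs and are not analysed here.

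**Figure D5:**
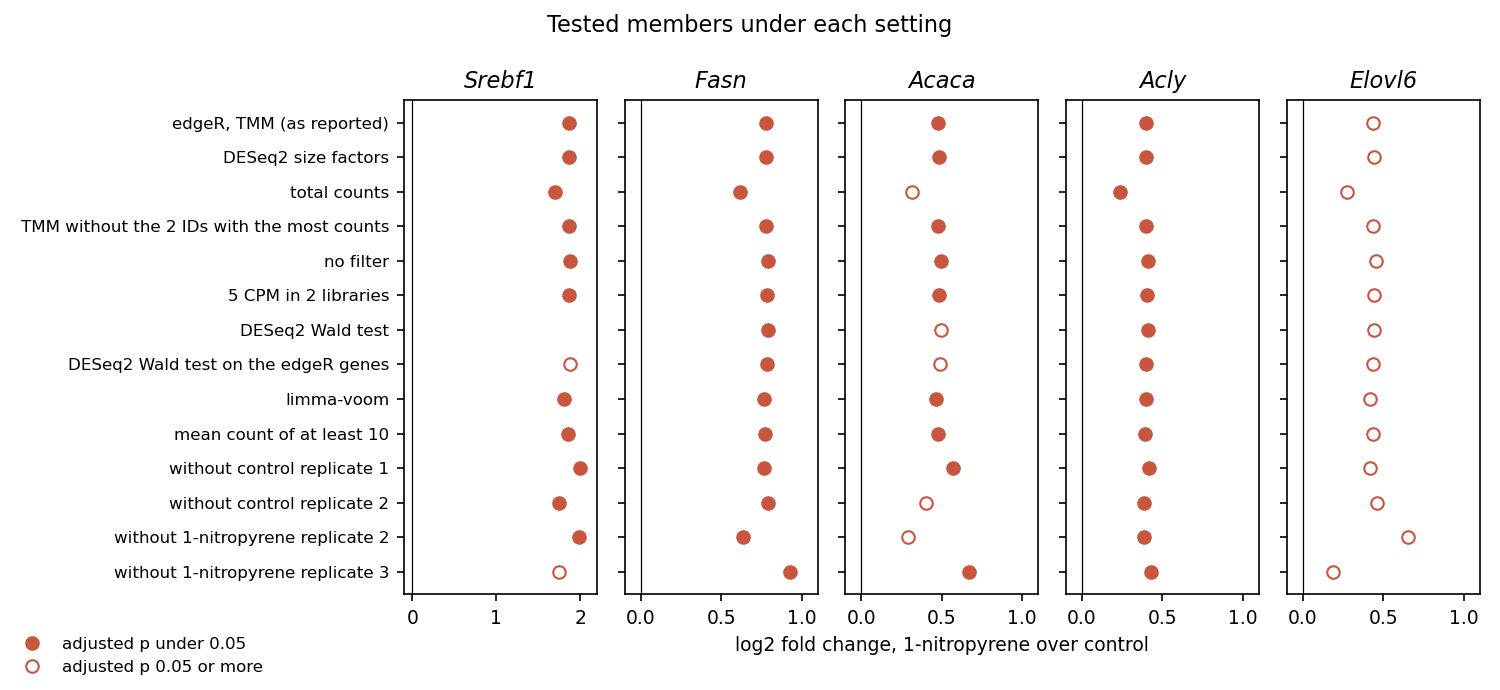
Log2 fold change of the 5 tested genes as reported and under each alternative setting, filled where the adjusted p was under 0.05 and open otherwise. All values shown are above 0; Fasn and Acly are filled throughout, Srebf1 is open in 2 settings, Acaca in 5, and Elovl6 in every setting, while the DESeq2 Wald test with its own filter gave Srebf1 no adjusted p and so no point.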

How the data were processed

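The table that the authors deposited gives raw whole-number counts of footprints per Ensembl gene ID, with 1 column for each of the 4 libraries. Per the submitters' processing notes, cutadapt, Bowtie, HISAT2, featureCounts, DESeq2 and build mm10 were used; versions, roles, annotation, fragment length selection and the treatment of strand and of reads that match several genes are, in the sources used here, not given. Counts of genes with overlapping, antisense or near-identical partners are therefore uncertain.

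From the counts, IDs were kept with filterByExpr (minimum count 10, minimum total 15), scaled with TMM and compared with edgeR 4.0.16 (quasi-likelihood F test, in R 4.3.3) over all 4 libraries, without covariates, with Benjamini-Hochberg adjustment over the 7719 IDs tested. The prior degrees of freedom were infinite, so each ID took its spread from the trend. The scripts were tested on simulated data. Standard errors were derived as the fold change over the root of F. Pooled ratios carry exact binomial counting intervals (95%). Alternatives were DESeq2 1.42.0, limma-voom (limma 3.58.1), other scalings and filters, and leaving out each library. All 8 genes are named by rule. The genes, motifs and lists were chosen with earlier results of these data known. The comparison of libraries within a group gave a chi-square per degree of freedom of 1.55 and 1.61, so none was taken as a copy of another.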

Additional observations from a re-analysis of the deposited data

How the results depend on the processing

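DESeq2's size factors, TMM after leaving out the 2 most abundant IDs, no filter, 5 CPM in 2 libraries, limma-voom and the added filter on a mean count of at least 10 kept the direction and call of Srebf1, Fasn, Acaca, Acly and Elovl6, and 4 of the 8 genes called. Over 13 alternatives, Fasn (log2 fold change 0.62 to 0.93, adjusted p up to 0.0250) and Acly (0.24 to 0.43, adjusted p up to 0.0280) stayed past the threshold and Elovl6 never reached it (0.19 to 0.66). Srebf1 was called in 10 of 12 and Acaca in 8 of 13. Total counts gave 3 of the 8 genes called, without Acaca (0.32), and 410 higher and 1098 lower IDs in all. The DESeq2 Wald test called 2 of the 8 genes, Fasn and Acly, and 311 IDs (234 higher, 77 lower), with Acaca at 0.49. On the IDs edgeR tested it called 2 and 345 (243 higher, 102 lower), with Srebf1 at 1.88 and Acaca at 0.49.

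With 1 library left out, which takes the single remaining sample to be as variable as the other group, there were 572 to 834 called IDs (382 to 480 higher, 190 to 354 lower) and 3 or 4 of the 8 genes. Srebf1 then ranged from 1.74 to 2.0 and Acaca from 0.29 to 0.67. The pooled log2 ratio of Scd1 turned from 0.92 to -0.16 without control replicate 1, that of Scd2 ranged from 0.55 to 1.70, that of their sum from 0.17 to 2.64 and that of Lpcat1 from -0.65 to -0.12. Depth limits these values: Scd1, Scd2 and Lpcat1 rest on 6, 6 and 23 control counts. No paired analysis was possible because replicate 2 is the single number common to both groups. Counts of pathway lists and footprints per coding length were not run, as no table tied symbols to IDs and no coding length was at hand. Shares and ratios between genes are thus not corrected for coding length. They compare libraries and do not give the relative synthesis of the proteins.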
